A study of Mus musculus with 12 samples.

Results

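The genotype comparison described here was made in splenic B cell cultures that received LPS and IL-4, with 3 libraries from *Cd19Cre/+* control mice and 3 from *Pdap1F/FCd19Cre/+* (Pdap1-deficient) mice. These are 6 of the 12 libraries of the series, and they were chosen by the labels for genotype and class switch. All mice were on a C57BL/6 background and all carried 1 *Cd19Cre* allele, so the controls share the Cre recombinase, which acts in B lineage cells. Per the study's methods, the floxed *Pdap1* allele was made in embryos of the C57BL/6N substrain, while the *Cd19Cre* line is given as C57BL/6. The substrain of each mouse is not given, so it may differ with genotype, and its part in the calls was not tested. The floxed *Pdap1* allele has loxP sites on both sides of exon 2. Per the study's methods, mice were of both sexes and 7 to 27 weeks old in age-matched groups, controls were littermates or came from inbred strains, and B cells were obtained from spleen by depleting CD43+ cells. Cells were grown with LPS at 5 µg/ml and IL-4 at 5 ng/ml for 48 h. The labels also give CH12, a B lymphoma line, as the cell line of every sample, whereas the methods describe primary cells. In the counts, 3 libraries held between 8196 and 10723 *Xist* counts and the other 3 held between 2527 and 3437 counts of the Y-linked *Ddx3y*, so the 6 libraries did not share the same sex chromosomes.

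LPS is bound by the receptor Tlr4 and drives B cells into division through NF-κB. IL-4 binds a receptor that activates the transcription factor STAT6, and with LPS it directs class switch recombination (CSR) to IgG1 and IgE. CSR needs transcription across the switch regions, and DNA breaks made there are joined. The same stimulus enlarges the cells and raises the demand for nucleotides, lipids and mitochondrial respiration. Pdap1 is a small cytoplasmic phosphoprotein, and the question of the comparison was what else changes in stimulated B cells that lack it, beyond the Atf4 stress targets and the ribosome genes.

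Total counts per library were between 9386667 and 15869143, and mice of a genotype varied by a median biological coefficient of variation of 17.2%. Expression is given as CPM, counts scaled to the library total, with TMM factors for single genes. The 7 B cell markers were near the same level in the 3 control libraries (a sum of 3350 to 3430 CPM) and the 3 Pdap1-deficient libraries (3470 to 3910). Markers of myeloid cells were not even. Their sum over 14 genes was 9.33 to 18.9 CPM in control mice, 12.1 in Pdap1-deficient mouse 1, 340 in mouse 2 and 40.0 in mouse 3, with *Lyz2* at 1545 counts in mouse 2, *C1qa* and *Clec9a* at 0 in every library and none of the 4 tested members past the threshold. In Pdap1-deficient mouse 2, 46 genes were more than 5 times above every other library (*Lyz2*, *Chil3*, *Ptgs2* and *Il1b* among them), and 0 of the 46 passed the test. Genes picked for being high in 1 library vary widely within their genotype and can hardly pass, so the 0 says nothing of the other calls. The part of myeloid RNA in those calls was not tested. Sums of T cell markers were 13.2 to 26.7 CPM in control and 9.58 to 46.7 in Pdap1-deficient libraries, of NK cell markers 0.897 to 5.47 and 1.19 to 7.06, of erythroid and platelet markers 9.42 to 11.9 and 10.5 to 26, and of stromal and endothelial markers 1.16 to 1.74 and 0.950 to 4.73. *Xist* was high in control mice 1 and 3 and in Pdap1-deficient mouse 1, so sex was not balanced between the genotypes. In bulk RNA, fewer cells of a type and less RNA per cell cannot be told apart.

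*Pdap1* lies on the minus strand of chromosome 5, between 145128769 and 145140238 on GRCm38. It was at 94.6, 93.1 and 98.7 CPM in the control group and at 23.9, 26.9 and 30.4 CPM in the Pdap1-deficient group, mice 1, 2 and 3 in that order. The deleted exon 2 (chromosome 5 from 145136902 to 145136993) is coding throughout and makes up 92 of the 2353 bases of the transcript, or 3.91%. Its length is no multiple of 3. The counts cover the whole gene, so the fall to 28.3% of the control mean was measured mostly outside the deleted exon.

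Of 15074 genes tested, 741 (4.92%) passed the threshold of 0.05 on the Benjamini-Hochberg adjusted p of the quasi-likelihood test in edgeR. Higher in Pdap1-deficient cultures were 421 genes (2.79%) and lower were 320 (2.12%), of which 383 and 284 lie outside the lists of ribosomal proteins, ribosome biogenesis, Atf4 targets and aminoacyl-tRNA synthetases. In all 741 genes the values of the genotypes did not overlap, as in 31.2% of all genes tested. The sides differed in shape. The median size of the log2 fold change was 0.85 among higher and 0.60 among lower genes, and 156 of the higher genes (37.1%) but 20 of the lower genes (6.25%) were past a 2-fold change. Lower genes were expressed at a higher level, with a median of 66.3 CPM in control mice against 17.8 for higher genes and 15.9 for all genes tested. Lower genes also had shorter exonic sequences (median 2930 bases) than higher genes (5456) or all genes (3537). With an offset for gene length, an alternative added after seeing the data, 327 genes were higher and 281 lower, and 583 of the 741 were among them. Processed pseudogenes made up 28 of the lower and 3 of the higher genes. Reads shared with near-identical copies could be counted in either place, so these are uncertain.

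**Figure D1:**
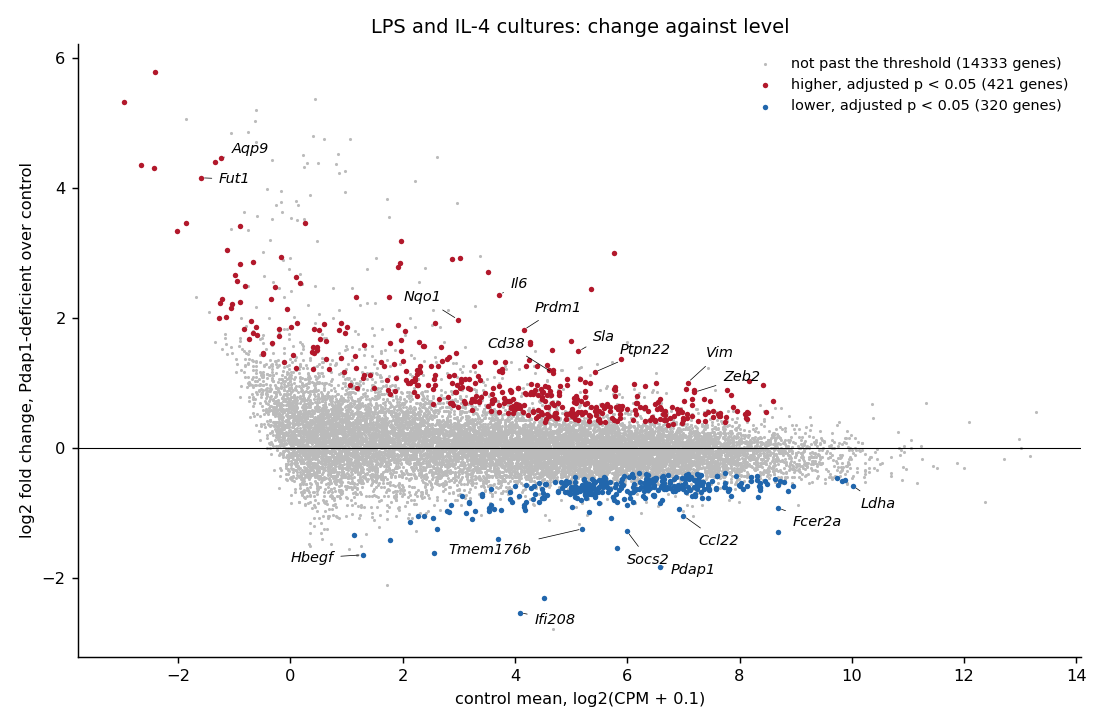
Log2 fold change of Pdap1-deficient over control cultures against the control mean, as log2(CPM + 0.1), for 15074 genes with LPS and IL-4. Red points are the 421 higher and blue points the 320 lower genes past the threshold, grey points the rest. The lower genes lie in a flatter band at higher expression than the higher genes.

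Short sequence motifs were looked for in windows of 300 bases around gene starts, most of each lying before the start, from RefSeq on GRCm38.p6. There were 11781 windows for 9292 of the genes tested. The motifs were TTCNNNNGAA (bound by STAT6), TGANTCA (bound by AP-1 factors, among them Batf) and TGATGNAA (bound by C/EBP-ATF dimers), on both strands. The first pair reads alike on both strands. TTCNNNNGAA was in 5.57% of all windows, 8.10% of windows of lower genes and 5.08% of windows of higher genes. TGANTCA was in 4.92%, 5.99% and 8.78% in the same order. TGATGNAA was in 2.38%, 0.704% and 8.31%. The higher genes include Atf4 targets, and these shares are a description without a test. The stretches below belong to genes described in the following paragraphs and are shown as examples of each motif in lower genes (*Fcer2a*, *Il5ra*, *Slamf7*) and higher genes (*Zeb2*, *Prdm1*, *Aqp9*), picked with the values of the genes known. They draw no line between the sides, since AP-1 motifs stand in both, *Aqp9* also holds an AP-1 motif 24 bases before its start, and the lower gene *Il5ra* also holds a C/EBP-ATF motif 221 bases before its start. No window was matched for the lower receptor gene *Cd40*. The motif is in capitals, each stretch is written 5′ to 3′ on the strand of the gene, and a match is not evidence of binding.
*Fcer2a* STAT6 motif, chr8:3690995-3691054, minus strand: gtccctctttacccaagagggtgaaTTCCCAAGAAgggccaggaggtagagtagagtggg
*Fcer2a* AP-1 motif, chr8:3690892-3690948, minus strand: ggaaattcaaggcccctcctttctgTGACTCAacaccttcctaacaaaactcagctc
*Il5ra* AP-1 motif, chr6:106749105-106749161, minus strand: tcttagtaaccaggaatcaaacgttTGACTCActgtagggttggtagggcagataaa
*Slamf7* AP-1 motif, chr1:171649010-171649066, minus strand: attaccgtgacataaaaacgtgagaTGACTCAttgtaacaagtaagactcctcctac
*Zeb2* AP-1 motif, chr2:45110378-45110434, minus strand: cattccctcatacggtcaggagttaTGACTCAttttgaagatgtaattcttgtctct
*Prdm1* AP-1 motif, chr10:44458765-44458821, minus strand: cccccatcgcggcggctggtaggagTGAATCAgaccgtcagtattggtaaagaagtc
*Aqp9* C/EBP-ATF motif, chr9:71162665-71162722, minus strand: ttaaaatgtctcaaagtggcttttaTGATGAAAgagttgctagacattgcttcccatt

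*Fcer2a* and some immunoglobulin constant genes were lower. *Fcer2a* encodes CD23, the low-affinity IgE receptor that IL-4 induces on B cells. It was at 398, 444 and 394 CPM in the 3 controls and at 243, 201 and 209 CPM in Pdap1-deficient mice 1, 2 and 3, a log2 fold change of -0.92 (SE 0.11, adjusted p = 0.00214, edgeR). Each Pdap1-deficient culture was below each control. Of the 41 genes on the list of immunoglobulin constant genes and switch factors, 4 were lower (*Ighg1*, *Ighe* and the endonuclease gene *Apex1* among them) and 1 was higher (*Ighd*), with a median log2 fold change of -0.11 (-0.07 without Pdap1-deficient mouse 2) against 0.02 over all genes. *Ighg1*, the product of switching to IgG1, fell from 412 ± 12.5 to 169 ± 38.9 CPM (SD, n = 3), and *Ighe*, that of switching to IgE, from 22.7 ± 2.87 to 4.60 ± 2 CPM. *Ighd*, the IgD constant gene that is lost from switched cells, rose from 74.4 ± 2.32 to 116 ± 7.14 CPM. Counts of *Ighg1* and *Ighe* hold both germline and switched transcripts, and reads of similar *Ighg* genes can be assigned to another copy. Leaving out a mouse lost no call of *Fcer2a*, *Ighg1* or *Ighe*. *Ighd* lost its call without control mouse 1, 2 or 3 (adjusted p up to 0.0815, edgeR), and *Apex1* without these or Pdap1-deficient mouse 3 (up to 0.167).

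Among cytokine, cytokine receptor and surface receptor genes, single members were lower. *Ccl22*, a chemokine gene that activated B cells use to attract T cells, fell from 128 ± 7.68 to 62.1 ± 3.27 CPM (SD, n = 3). *Socs2*, a feedback inhibitor of cytokine receptors that STAT proteins induce, was at 66.9, 57.4 and 67.2 CPM in controls and at 37.3, 22.5 and 18.7 CPM in Pdap1-deficient cultures (log2 fold change -1.28, SE 0.23, adjusted p = 0.0268, edgeR). It was the only call among 33 JAK-STAT and SOCS genes, whose median log2 fold change was -0.01. The defining members of this list and the receptor did not pass: *Stat6* was at 135, 141 and 141 CPM against 122, 119 and 117 CPM, and *Il4ra* at 742, 744 and 842 CPM against 631, 610 and 474 CPM (adjusted p = 0.178 and 0.0801, edgeR). *Il5ra*, the IL-5 receptor chain, fell from 56.5 ± 6.69 to 32.2 ± 5.94 CPM. *Cd40*, the receptor for the T cell help signal, fell from 130 ± 5.18 to 94.0 ± 10.3 CPM, the only call among 14 genes of the TNF receptor family. *Slamf7*, a self-binding receptor of the SLAM family, fell from 114 ± 2.05 to 82.0 ± 11.7 CPM. *Batf*, an AP-1 factor needed for CSR, was at 114, 124 and 124 CPM against 77.0, 49.2 and 63.4 CPM. *Hbegf*, a growth factor gene, fell from 2.34 ± 0.191 to 0.773 ± 0.364 CPM, and *Mif*, a cytokine gene, from 120 ± 12.2 to 77.7 ± 12.6 CPM. Leaving out mice kept the call of *Ccl22* in 6 of 6 fits. The others lost it without control mouse 2 or 3, all but *Batf* also without control mouse 1, and *Cd40*, *Il5ra*, *Slamf7* and *Mif* without Pdap1-deficient mouse 3 too (adjusted p up to 0.176, edgeR). *Socs2* kept its call without that mouse but lost it without Pdap1-deficient mouse 2 (adjusted p up to 0.138, edgeR).

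**Figure D2:**
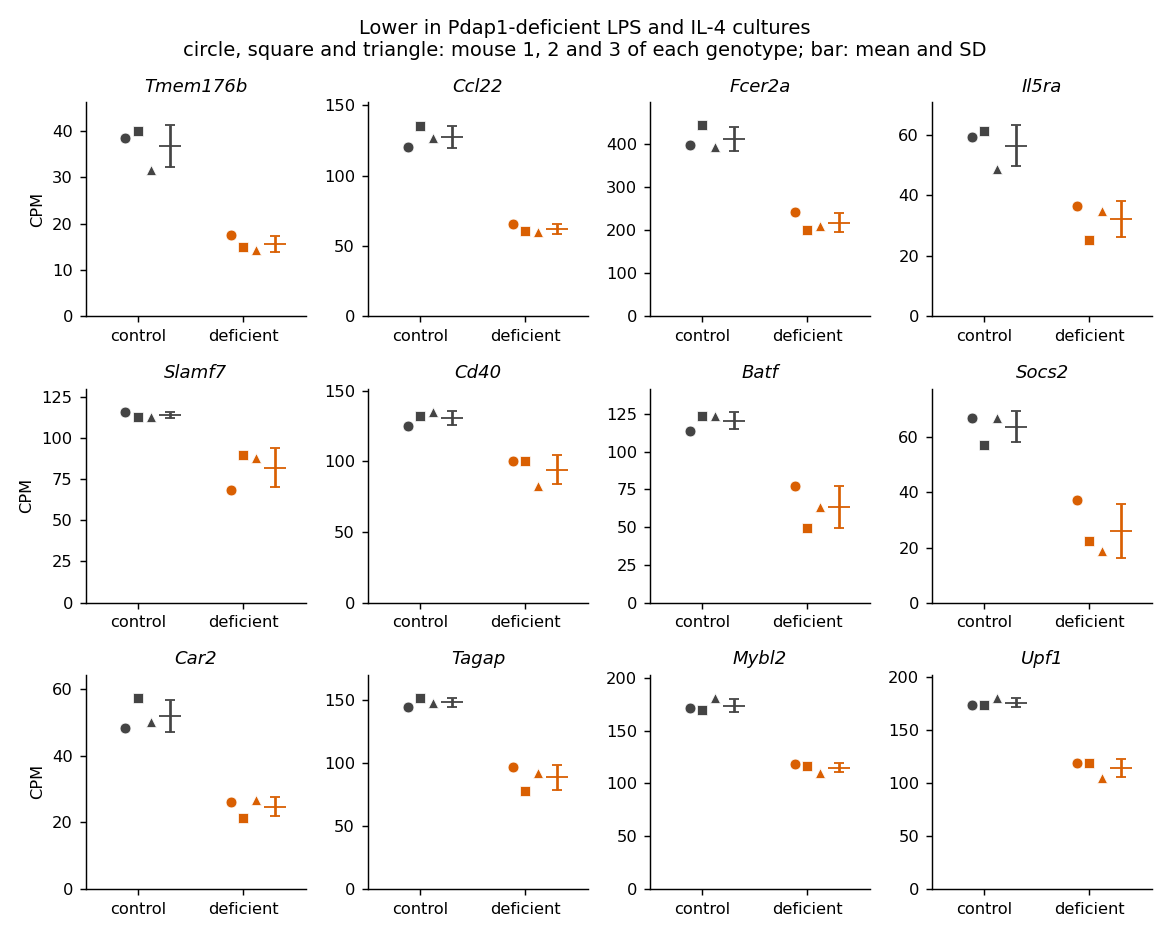
CPM of 12 genes that were lower in Pdap1-deficient cultures, 1 panel per gene with its own axis from 0. Circles, squares and triangles are mice 1, 2 and 3 of each genotype, which the labels do not pair, and bars give the mean and SD. In each panel the 3 Pdap1-deficient cultures lie below the 3 controls.

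Other genes with the smallest adjusted p on the lower side came from unrelated families. *Tmem176b* and *Tmem176a*, neighbouring genes for membrane proteins of endosomes, were both lower, from 36.7 ± 4.47 to 15.6 ± 1.8 CPM and from 17.8 ± 1.86 to 9.43 ± 3.09 CPM (SD, n = 3). *Car2*, the gene for cytosolic carbonic anhydrase II, was at 48.3, 57.5 and 50.2 CPM against 26, 21.4 and 26.7 CPM (log2 fold change -1.08, SE 0.13, adjusted p = 0.00173, edgeR). Its relative *Car3* fell from 3.33 ± 0.472 to 1.25 ± 0.0455 CPM. *Tagap*, which encodes a GTPase-activating protein of activated lymphocytes, fell from 148 ± 3.63 to 88.9 ± 9.95 CPM, and *Net1*, which encodes a guanine nucleotide exchange factor, from 173 ± 1.55 to 102 ± 13.1 CPM. Both proteins act on small GTPases. *Mybl2*, a transcription factor gene of dividing cells, fell from 174 ± 6.23 to 115 ± 3.90 CPM, and *Upf1*, the helicase gene of nonsense-mediated RNA decay, from 175 ± 4.39 to 114 ± 8.68 CPM. *Wdr4*, which encodes a subunit of a tRNA methyltransferase, fell from 63.7 ± 3.24 to 34.6 ± 3.03 CPM, and *Polr2h*, a subunit gene of the RNA polymerases, from 44.8 ± 1.87 to 25 ± 2.29 CPM. *Zfp280b*, a zinc finger gene, fell from 226 ± 3.39 to 146 ± 10.6 CPM, and *Pebp1*, which encodes an inhibitor of Raf kinase, from 78.8 ± 2.27 to 49.7 ± 4.11 CPM. In the fits that each left out 1 mouse, *Tmem176b*, *Car2*, *Wdr4* and *Polr2h* kept their calls. *Tagap*, *Net1*, *Mybl2*, *Upf1*, *Zfp280b* and *Pebp1* lost theirs without 2 or 3 of the control mice, with an adjusted p of at most 0.0722 (edgeR), and *Tmem176a* and *Car3* also without Pdap1-deficient mouse 3 (at most 0.177).

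*Ifi208* was the only member of its family past the threshold. It belongs to the HIN-200 genes of chromosome 1, which encode interferon-inducible sensors of nucleic acids. *Ifi208* was at 17.5, 12.7 and 20.5 CPM in controls and at 1.91, 3.85 and 2.90 CPM in Pdap1-deficient cultures, a log2 fold change of -2.53 (SE 0.27, adjusted p = 0.00115, edgeR). The other 10 of the 11 tested members had fitted values above control, and none passed. *Ifi213* was at 50.2, 41.8 and 65.8 CPM in controls and at 24.4, 239 and 133 CPM in Pdap1-deficient cultures, and *Ifi209* at 190, 163 and 214 CPM against 161, 507 and 386 CPM. For both, mouse 1 was below every control and mice 2 and 3 were above. *Ifi208* was low in all 3 Pdap1-deficient mice, and no left-out mouse changed its call.

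Interferon response genes varied between the Pdap1-deficient mice. Of 72 tested, 65 had a fitted value above control, with a median log2 fold change of 0.46, but 0 passed in edgeR, where 5 had an unadjusted p under 0.05, and 3 passed in DESeq2. In log2 CPM relative to the control mean, the list's median was 0.01, -0.20 and 0.20 in the 3 controls and -0.49, 1.05 and 0.43 in Pdap1-deficient mice 1, 2 and 3. Without mouse 2 the median log2 fold change was 0.01. The mice thus stood in the order 2, 3, 1, which is also the order of the myeloid marker sum (340, 40.0 and 12.1 CPM). *Ifit3* was at 3.69, 2.66 and 10.8 CPM in controls and at 1.43, 58.4 and 14.2 CPM in Pdap1-deficient mice. The list of cytokines and chemokines showed the same order, at -0.41, 0.95 and 0.33, and its median log2 fold change of 0.57 became 0.03 without mouse 2. The part of myeloid cells in these lists was not tested.

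**Figure D3:**
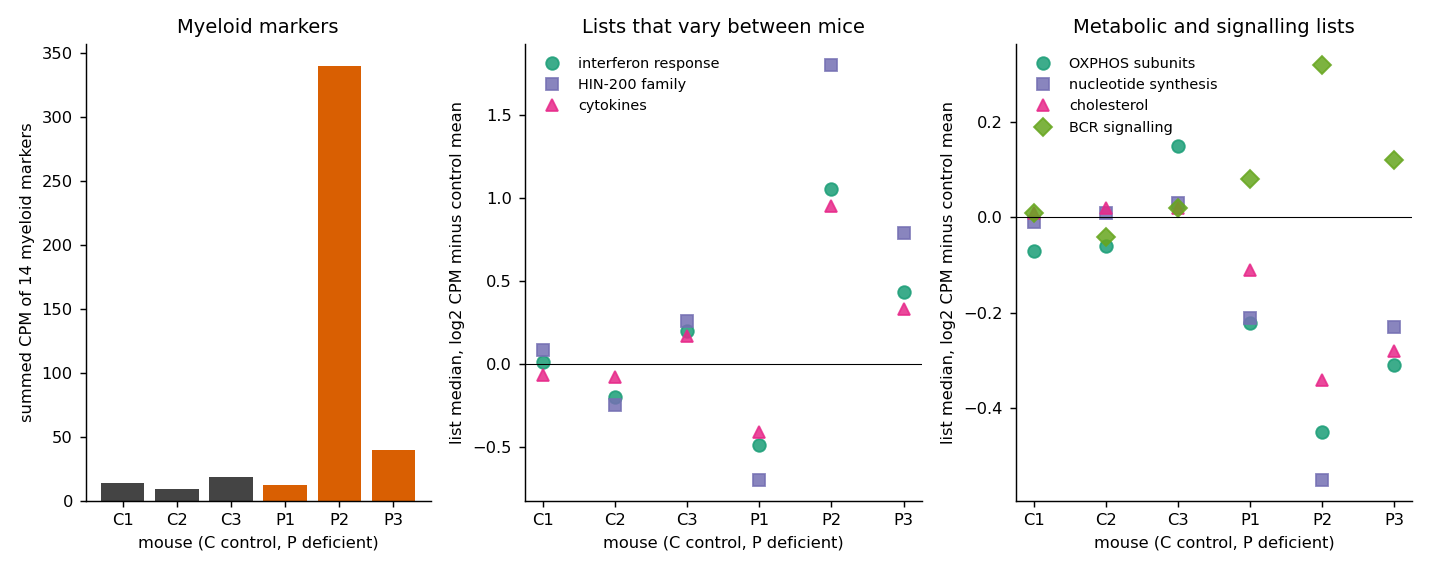
Left, summed CPM of 14 myeloid markers in each library. Middle and right, the median over a list's members of log2 CPM minus the control mean, by library, for 3 lists that differ between the Pdap1-deficient mice and 4 metabolic and signalling lists. Myeloid markers stand at 340 CPM in Pdap1-deficient mouse 2, and the interferon, HIN-200 and cytokine lists are below 0 in mouse 1 and above 0 in mice 2 and 3.

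Among the cytokine and chemokine genes, *Il6* had the smallest adjusted p. This cytokine gene, induced in B cells by LPS, was at 11.7, 13.1 and 14.3 CPM in controls and at 47.9, 77.5 and 75.2 CPM in Pdap1-deficient cultures, a 5.12-fold difference (log2 fold change 2.36, SE 0.19, adjusted p = 0.000225, edgeR). Its call held in all 6 fits that left out 1 mouse. The myeloid marker sums in Pdap1-deficient mice 1, 2 and 3 were 12.1, 340 and 40.0 CPM, and their part in the *Il6* values was not tested. *Vegfa*, the gene for vascular endothelial growth factor and itself on the list of Atf4 targets, was at 7.46, 7.15 and 7.08 CPM against 70.0, 34.3 and 59.6 CPM. *Osm*, the gene for the IL-6 family cytokine oncostatin M, went from 4.52 ± 0.520 to 8.21 ± 1.82 CPM (SD, n = 3) and lost its call without any control mouse or Pdap1-deficient mouse 2 or 3 (adjusted p up to 0.215, edgeR). Of 30 cytokine and chemokine genes tested, 3 rose and 3 (*Ccl22*, *Mif*, *Hbegf*) fell.

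Of 49 B cell surface receptors 5 were higher, 2 were lower (*Fcer2a*, *Slamf7*) and 42 did not pass, beside 2.79% higher and 2.12% lower over all genes tested. The list's median log2 fold change was 0.22, and 0.13 without Pdap1-deficient mouse 2. *Cd38*, an ectoenzyme that makes cyclic ADP-ribose, was at 27, 23.4 and 25.9 CPM against 50.2, 75.6 and 43.8 CPM (log2 fold change 1.16, SE 0.19, adjusted p = 0.0124, edgeR). *Siglecg*, an inhibitory sialic acid receptor of B cells, rose from 58.3 ± 5.09 to 84.1 ± 9.78 CPM (SD, n = 3). The tetraspanin genes *Cd53* and *Cd9* rose from 202 ± 4.53 to 286 ± 6.29 CPM and from 4.65 ± 1.35 to 10.2 ± 1.95 CPM, and *Cd1d1*, which presents lipids, from 3.19 ± 0.784 to 6.58 ± 0.980 CPM. *Cd22*, an inhibitory receptor that defines B cells, did not pass (adjusted p = 0.587, edgeR). Of 38 cytokine receptors, 5 were higher (*Il18rap*, *Il10rb*, *Ifnar1*, *Lifr* and *Acvr1b*) and *Il5ra* was lower, with a median of 0.40 that was 0.26 without Pdap1-deficient mouse 2. *Ifnar1*, a chain of the type I interferon receptor, rose from 79.1 ± 3.82 to 106 ± 5.23 CPM, and *Il10rb*, a chain of the IL-10 receptor, from 10.2 ± 0.769 to 16.7 ± 2.42 CPM. Calls on both lists depended on the controls: without control mouse 1, 2 or 3 or Pdap1-deficient mouse 3, between 1 and 2 of the 7 surface receptor calls and between 0 and 1 of the 6 cytokine receptor calls stayed (adjusted p up to 0.21, edgeR), and *Fcer2a* stayed in every fit.

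Of 43 G protein-coupled receptors, 5 rose and 0 fell. *Ptgir*, the prostacyclin receptor, was at 13.9, 12.5 and 14.4 CPM against 31.5, 28.1 and 35.8 CPM (log2 fold change 1.22, SE 0.13, adjusted p = 0.00132, edgeR). *P2ry10*, a lysophospholipid receptor, rose from 90.2 ± 3.33 to 144 ± 5.34 CPM and *S1pr1*, the sphingosine 1-phosphate receptor that guides lymphocytes out of lymphoid tissue, from 24.8 ± 2.85 to 43.8 ± 9.47 CPM (SD, n = 3). *Adgre5*, an adhesion receptor, rose from 17.8 ± 0.660 to 28.0 ± 0.417 CPM. Of 41 adhesion genes, 4 rose and 0 fell. *Plxna1*, a semaphorin receptor, rose from 25.3 ± 2.41 to 72.1 ± 21 CPM, the integrin chain *Itga4* from 146 ± 5.69 to 271 ± 43.1 CPM, and *L1cam* from 1.99 ± 0.216 to 3.95 ± 0.492 CPM. *Ptgir* and *Plxna1* kept their calls with each mouse left out. *Itga4* lost its call without control mouse 2 or 3, *P2ry10* without any control mouse, and the others also without Pdap1-deficient mouse 3 (adjusted p up to 0.20, edgeR).

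Of 65 genes of B cell receptor signalling, 8 rose, 0 fell and 57 did not pass, with a median log2 fold change of 0.20 that was 0.11 without Pdap1-deficient mouse 2. The list holds both activators and inhibitors of the receptor. *Sla*, an adaptor that lowers antigen receptor levels, was at 33.7, 33.1 and 38.0 CPM in controls and at 97.5, 112 and 84.5 CPM in Pdap1-deficient cultures, a 2.81-fold difference (log2 fold change 1.49, SE 0.13, adjusted p = 0.000258, edgeR). *Ptpn22*, a phosphatase that restrains antigen receptor signals, was at 41.0, 41.2 and 46.0 CPM against 81.4, 113 and 94.4 CPM (log2 fold change 1.17, SE 0.13). *Ubash3b*, another inhibitory phosphatase, rose from 16 ± 1.38 to 25.6 ± 3.32 CPM (SD, n = 3). Among genes that carry the signal, *Pik3cg*, a catalytic subunit of PI3 kinase, was at 19.4, 18.1 and 19.1 CPM against 35.7, 60.3 and 49.0 CPM. *Rasgrp3*, a Ras exchange factor, rose from 79.6 ± 9.09 to 155 ± 35.4 CPM, the calcium channel *Itpr2* from 72.4 ± 3.33 to 127 ± 33.4 CPM, and the kinases *Fyn* and *Prkcb* from 38.1 ± 2.56 to 55.6 ± 2.04 CPM and from 214 ± 7.22 to 285 ± 19.7 CPM. The kinases *Syk* (350, 345 and 347 CPM against 497, 478 and 415 CPM) and *Btk* (138, 139 and 130 CPM against 137, 158 and 145 CPM) did not pass (adjusted p = 0.0505 and 0.504, edgeR). *Sla*, *Ptpn22* and *Pik3cg* kept their calls with each mouse left out. *Rasgrp3* lost its call without control mouse 2 or 3 or Pdap1-deficient mouse 3, and the other 4 without any control mouse or that mouse, *Prkcb* also without Pdap1-deficient mouse 1 (adjusted p up to 0.193, edgeR).

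Other signalling lists had few calls, and their shares were closer to the 4.92% of all genes (8.47% of the Toll-like receptor and NF-κB list, 6.35% of the MAP kinase list and 7.84% of the PI3 kinase list). Of 59 genes of the Toll-like receptor and NF-κB pathways 3 rose and 2 fell. *Tlr4*, the LPS receptor, was at 36.7, 42.6 and 34.9 CPM against 65.9, 58.0 and 74.3 CPM (log2 fold change 0.79, SE 0.13, adjusted p = 0.00875, edgeR). The myeloid marker sums in the same Pdap1-deficient mice were 12.1, 340 and 40.0 CPM, and their part in the value was not tested. *Irak3*, an inhibitor of the pathway, rose from 18.3 ± 1.57 to 44.1 ± 14.6 CPM and the adaptor *Tirap* from 9.28 ± 0.388 to 15.6 ± 1.24 CPM, while *Traf4*, a signal adaptor, fell from 43.5 ± 3.22 to 27.2 ± 1.31 CPM and *Otulin*, which removes linear ubiquitin chains, from 120 ± 1.40 to 80.5 ± 6.03 CPM (SD, n = 3). Of 63 genes of the MAP kinase list, *Dusp5*, *Rasa3* and *Map3k1* rose and *Hras* fell. Of 51 PI3 kinase and mTOR genes, 4 rose and 0 fell. *Ddit4* and *Eif4ebp1*, which restrain mTOR signalling or its output, are also on the list of Atf4 targets. The others were the lipid phosphatase gene *Inpp4b* and *Irs2*, an insulin receptor adaptor. *Ddit4* rose from 6.39 ± 1.44 to 16.2 ± 2.63 CPM and *Inpp4b* from 55.0 ± 6.90 to 102 ± 17.1 CPM. With 1 mouse left out, between 0 and 5 of the 5 Toll-like receptor and NF-κB calls stayed, between 0 and 4 of the 4 MAP kinase calls, and between 0 and 4 of the 4 PI3 kinase calls. The lowest counts came without control mouse 1 (0, 0 and 0), and without control mouse 2 they were 1, 0 and 0, without control mouse 3 they were 0, 0 and 1, and without Pdap1-deficient mouse 3 they were 1, 1 and 2.

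**Figure D4:**
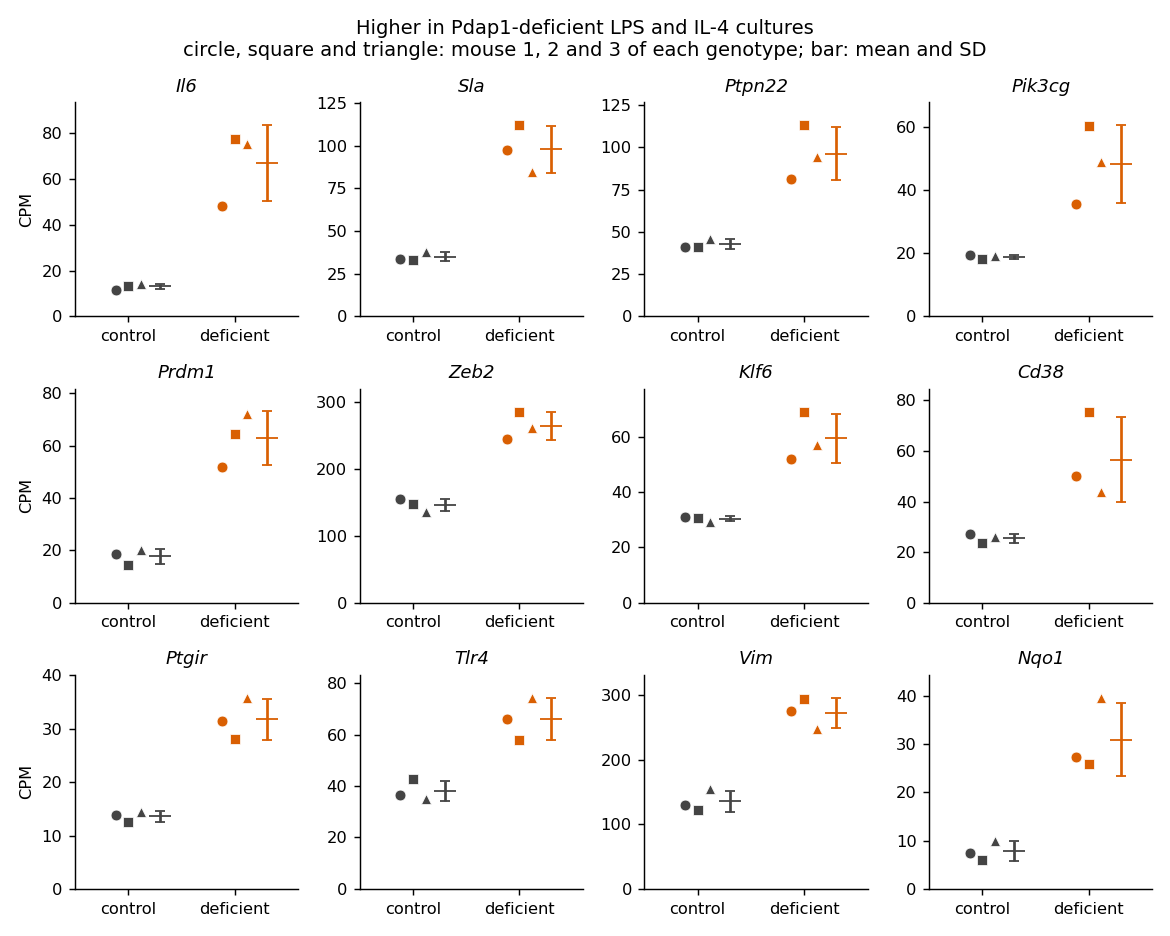
CPM of 12 genes that were higher in Pdap1-deficient cultures, 1 panel per gene with its own axis from 0. Circles, squares and triangles are mice 1, 2 and 3 of each genotype, which the labels do not pair, and bars give the mean and SD. The 3 Pdap1-deficient cultures lie above the 3 controls in each panel, and mouse 2 is the highest for some genes (*Cd38*, *Pik3cg*) but not for others (*Tlr4*, *Prdm1*, *Nqo1*).

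Among 61 transcription factors of the B lineage, 8 were higher and only *Batf* was lower, with a median log2 fold change of 0.28 that was 0.15 without Pdap1-deficient mouse 2. *Prdm1*, which encodes Blimp-1 and drives plasma cell differentiation, was at 18.5, 14.4 and 20.2 CPM in controls and at 51.7, 64.3 and 72.2 CPM in Pdap1-deficient cultures, a 3.54-fold difference (log2 fold change 1.82, SE 0.16, adjusted p = 0.000323, edgeR). *Zeb2*, a zinc finger repressor, was at 155, 147 and 136 CPM against 245, 286 and 262 CPM (log2 fold change 0.86, SE 0.10). *Klf6* rose from 30.4 ± 1.03 to 59.5 ± 8.89 CPM and *Bach1*, a repressor of haem and antioxidant genes, from 18.1 ± 0.857 to 32.8 ± 3.51 CPM (SD, n = 3). *Bhlhe40* and *Bhlhe41*, related repressors, rose to 37.6 ± 7.87 from 22.3 ± 2.03 CPM and to 13.3 ± 3.16 from 5.54 ± 0.724 CPM, *E2f2* from 51.9 ± 6.61 to 77.0 ± 6.37 CPM and *Tcf4* from 216 ± 8.92 to 301 ± 30.6 CPM. The plasma cell factors *Irf4* (314, 293 and 297 CPM against 388, 318 and 405 CPM) and *Xbp1* and the B cell factor *Pax5* did not pass (adjusted p = 0.15, 0.577 and 0.989, edgeR). Of 37 plasmablast and secretory genes 4 rose (*Prdm1*, *Ell2*, *Dnajb9*, *Tent5c*) and 2 fell (*Sdf2l1*, *Slamf7*), with a median of -0.02. *Ell2*, an elongation factor for secreted immunoglobulin transcripts, rose from 86.8 ± 1.52 to 121 ± 5.09 CPM. *Prdm1*, *Zeb2* and *Klf6* kept their calls with each mouse left out. *Bach1* lost its call without control mouse 1 or 2, and the remaining higher factors, *Ell2*, *Dnajb9* and *Tent5c* without any control mouse, with an adjusted p of at most 0.188 (edgeR). Without Pdap1-deficient mouse 3, *E2f2*, *Bhlhe40*, *Tcf4*, *Ell2*, *Dnajb9* and *Tent5c* lost theirs too, *Tent5c* also without Pdap1-deficient mouse 2. With the gene length offset *Tcf4* did not pass (adjusted p = 0.156, edgeR).

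Several of the strongest increases were in genes that control cultures hardly expressed. *Aqp9*, a channel for water and small solutes such as glycerol, was at 0.251, 0.183 and 0.531 CPM in controls and at 8.99, 5.35 and 7.72 CPM in Pdap1-deficient cultures (adjusted p = 0.000312, edgeR). *Fut1*, a fucosyltransferase gene, was at 0.335, 0.0917 and 0.265 CPM against 3.26, 4.45 and 5.36 CPM. *Soat2*, which esterifies cholesterol, was at 0.168, 0 and 0.0885 CPM against 2.15, 1.92 and 1.72 CPM, and *Cyb5r2*, a cytochrome b5 reductase gene, at 0.251, 0.183 and 0.0885 CPM against 2.23, 2.46 and 1.29 CPM. *Ttc39c* was at 0.419, 0.367 and 0.531 CPM against 1.91, 6.85 and 5.58 CPM. The controls held few counts of these genes, so no fold is given. At higher levels, *Efcab11* rose from 5.88 ± 0.682 to 22.4 ± 3.70 CPM, *Fam221a* from 3.66 ± 0.884 to 13.6 ± 0.544 CPM, *Evi2a* from 12.4 ± 0.217 to 31.2 ± 4.83 CPM, *Mdfic* from 40.1 ± 2.35 to 80.8 ± 8.73 CPM and *Tnks1bp1*, a tankyrase partner, from 19.5 ± 0.361 to 38.7 ± 2.27 CPM (SD, n = 3). These 5 genes, *Aqp9* and *Fut1* kept their calls in all 6 fits that left out 1 mouse. *Cyb5r2* lost its call without control mouse 2 or 3, and *Ttc39c* without control mouse 1, 2 or 3 (adjusted p up to 0.0732, edgeR).

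Targets of the antioxidant factor Nrf2 and glutathione genes had 7 higher and 2 lower members among 35, with a median log2 fold change of 0.28 that was 0.14 without Pdap1-deficient mouse 2. *Nqo1*, a quinone reductase gene, was at 7.46, 5.96 and 10 CPM against 27.3, 25.9 and 39.6 CPM (log2 fold change 1.98, SE 0.22, adjusted p = 0.00147, edgeR). *Gsr*, which regenerates glutathione, rose from 37.7 ± 1.04 to 76.5 ± 10.1 CPM, and *Gclm*, a subunit gene of glutathione synthesis, from 51.6 ± 2.90 to 80.4 ± 4.61 CPM (SD, n = 3). *Slc3a2*, the heavy chain of amino acid transporters and a known Atf4 target too, rose from 142 ± 8.70 to 241 ± 16.4 CPM. *Mgst2*, *Osgin1* and the catalase gene *Cat* rose as well, while *Gsto1* and *Prdx6* fell, *Prdx6* from 130 ± 3.17 to 89.5 ± 11.1 CPM. *Me1*, an NADPH-producing malic enzyme gene, rose from 0.726 ± 0.186 to 4.09 ± 0.681 CPM. *Nqo1*, *Gsr* and *Me1* kept their calls with each mouse left out. The other 7 did not, and 2, 2 and 3 of the 9 calls on the list stayed without control mouse 1, 2 and 3 and 3 without Pdap1-deficient mouse 3 (adjusted p up to 0.21, edgeR).

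The nucleotide, polyamine, oxidative phosphorylation, citrate cycle and cholesterol lists had medians below 0, and most of their members did not pass. In purine and pyrimidine synthesis 9 of 50 genes fell and 0 rose, with a median log2 fold change of -0.33. The list lay at -0.21, -0.55 and -0.23 in Pdap1-deficient mice 1, 2 and 3 and between -0.01 and 0.03 in the controls (median log2 CPM relative to the control mean). *Dctpp1*, which removes unusual nucleotides, was at 35.7, 40.0 and 43.8 CPM against 23.4, 17.0 and 20.3 CPM (log2 fold change -0.98, SE 0.14, adjusted p = 0.00564, edgeR). *Cad*, the enzyme that starts pyrimidine synthesis, was at 499, 494 and 503 CPM against 367, 307 and 325 CPM. Of the purine pathway, *Pfas* fell from 352 ± 4.44 to 249 ± 23.6 CPM, *Gart* from 331 ± 21.1 to 219 ± 40.8 CPM, *Adss* from 254 ± 18.8 to 172 ± 27.6 CPM, *Impdh1* from 38.9 ± 1.82 to 24.8 ± 3.30 CPM and the salvage enzyme *Aprt* from 88.7 ± 5.94 to 53.3 ± 7.65 CPM (SD, n = 3). *Uck1* and *Dut* fell as well. In the polyamine and methionine list 4 of 23 genes fell (*Amd2*, *Mri1*, *Ahcy*, *Oaz1*) and 0 rose, with a median of -0.34. Without Pdap1-deficient mouse 2 the medians were -0.26 and -0.16. Without control mouse 1, 2 or 3 or Pdap1-deficient mouse 3, 1, 0, 0 and 1 of the 9 nucleotide calls and 0 of the 4 polyamine calls stayed (adjusted p up to 0.196, edgeR), and without either of the other mice all stayed.

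Of 70 nuclear genes for subunits of oxidative phosphorylation 65 had fitted values below control, 7 fell, 0 rose and 63 did not pass, with a median log2 fold change of -0.32. In the control mice the list lay at -0.07, -0.06 and 0.15, and in the Pdap1-deficient mice at -0.22, -0.45 and -0.31, so the groups did not overlap. *Atp5g3*, a ring subunit of ATP synthase, was at 135, 131 and 158 CPM against 98.2, 75.7 and 81.1 CPM (log2 fold change -0.74, SE 0.13, adjusted p = 0.0124, edgeR). Of complex III, *Cyc1* fell from 112 ± 2.95 to 71.2 ± 9.12 CPM, *Uqcrfs1* from 105 ± 2.90 to 70.1 ± 8.5 CPM, *Uqcr10* from 43.0 ± 9.63 to 25.7 ± 3.17 CPM and *Uqcr11* from 22.5 ± 4.49 to 13.9 ± 2.05 CPM (SD, n = 3). *Cox7b* of complex IV and *Ndufa12* of complex I were the other calls. *Sdhd*, a subunit of succinate dehydrogenase, fell from 148 ± 6.73 to 90.3 ± 10.4 CPM, and 28 of 31 citrate cycle genes had fitted values below control, with *Sdhd* the only lower call and the Atf4 target *Pck2* the only higher call. Of the 12 genes of the mitochondrial genome none passed and 10 had fitted values above control, with a median of 0.09 (2 at an unadjusted p under 0.05 in edgeR, 1 passing in DESeq2). *mt-Nd1* was at 1110, 960 and 1010 CPM against 1140, 745 and 1140 CPM, and reads of several mitochondrial genes can be shared with nuclear copies. Without control mouse 1, 2 or 3, 0 of the 7 nuclear calls stayed, and 1 stayed without Pdap1-deficient mouse 3 (adjusted p up to 0.199, edgeR). The median stayed between -0.38 and -0.25.

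In cholesterol synthesis and uptake 6 of 36 genes fell and 1, *Soat2*, rose, with a median log2 fold change of -0.26 that was -0.17 without Pdap1-deficient mouse 2. *Scap*, which escorts the sterol sensor SREBP, fell from 98.3 ± 7.38 to 66.1 ± 8.32 CPM. The enzymes *Acat2*, *Mvd* and *Lss* and the sterol carrier *Stard4* fell by log2 values between -0.65 and -0.45, and *Lss* went from 109 ± 5.05 to 75.4 ± 12.3 CPM (SD, n = 3). *Hmgcs1*, an early enzyme of the pathway, was at 320, 344 and 323 CPM against 302, 221 and 288 CPM and did not pass (adjusted p = 0.204, edgeR). In the fatty acid list 1 of 53 genes rose and 2 fell, with a median of -0.07. The share called was 5.66%, near the 4.92% of all genes. *Fasn*, the fatty acid synthase, was at 907, 887 and 934 CPM against 744, 590 and 589 CPM (log2 fold change -0.50, SE 0.12, adjusted p = 0.0438, edgeR). *Elovl6*, which lengthens its product, fell from 22.8 ± 1.49 to 13.5 ± 3.17 CPM. *Cpt1a*, which carries fatty acids into mitochondria for oxidation, rose from 20.8 ± 1.97 to 49.7 ± 15.4 CPM. On the list of glycolysis and glucose uptake 4 of 48 genes fell (*Pfkl*, *Pgam1*, *Tpi1*, *Ldha*) and 2 rose (*Pfkp*, *Ddit4*), with a median of -0.07 and 12.5% called. *Ddit4* is a regulator of mTOR signalling and also on the list of Atf4 targets. The phosphofructokinase genes went apart: *Pfkl* was at 119, 124 and 132 CPM against 94.2, 68.0 and 89.4 CPM, and *Pfkp* at 181, 169 and 182 CPM against 301, 261 and 320 CPM (log2 fold change 0.73, SE 0.11, adjusted p = 0.00625, edgeR). *Ldha*, lactate dehydrogenase, fell from 1040 ± 26.8 to 695 ± 129 CPM, while *Hk2* and the glucose transporter *Slc2a1* did not pass (adjusted p = 0.0848 and 0.896, edgeR). Without control mouse 1, 2 or 3 or Pdap1-deficient mouse 3, 1 of the 7 cholesterol calls stayed each time (*Soat2*), 0 of the 3 fatty acid calls, and 0, 0, 1 and 2 of the 6 glycolysis calls (adjusted p up to 0.181, edgeR).

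**Figure D5:**
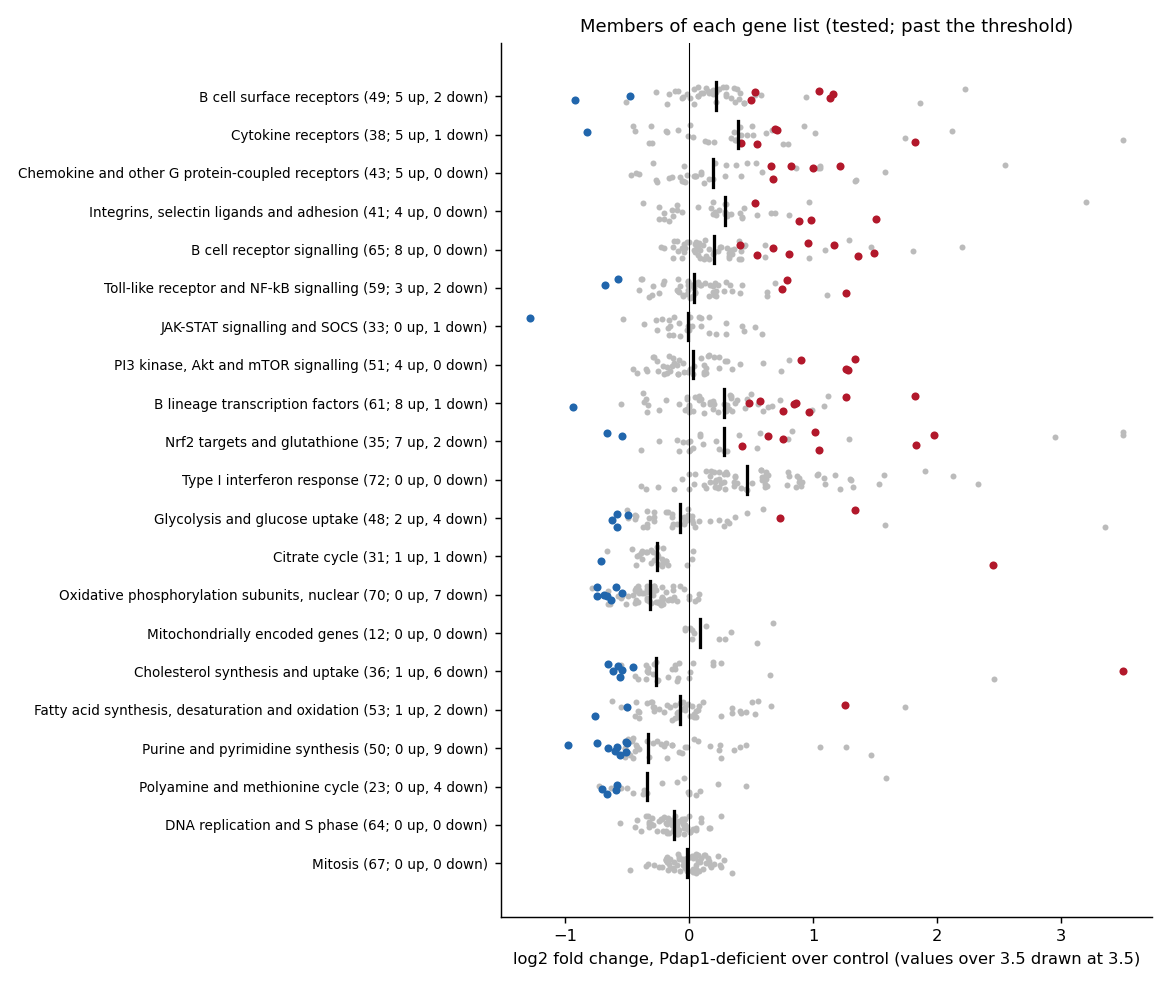
Log2 fold change of Pdap1-deficient over control cultures for the tested members of 21 gene lists, with red points for higher and blue points for lower genes past the threshold, grey points for the rest and a black bar at the list median. Surface receptor lists and the B cell receptor and PI3 kinase signalling lists carry calls mostly to the right of 0. Nucleotide, cholesterol and oxidative phosphorylation lists carry them mostly to the left. The Toll-like receptor and NF-κB list has 3 higher and 2 lower calls and the JAK-STAT list 1 lower call. The S phase and mitosis lists carry none.

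The lists of S phase and mitosis genes had no calls. Of 64 genes of DNA replication and S phase, 0 passed in edgeR, with 14 at an unadjusted p under 0.05, and 2 passed in DESeq2. Of the 64, 53 had fitted values below control with a median of -0.12, which was -0.05 without Pdap1-deficient mouse 2. Of 67 mitosis genes 0 passed in edgeR, with 7 at an unadjusted p under 0.05, and 1 passed in DESeq2, with a median of -0.02. *Mki67*, a marker of dividing cells, was at 1860, 1910 and 1680 CPM against 2280, 1940 and 2260 CPM (adjusted p = 0.242, edgeR), and *Myc* at 129, 139 and 155 CPM against 117, 77.0 and 95.9 CPM (adjusted p = 0.0584). Among 97 cytoskeleton genes 6 rose and 5 fell, and among these the intermediate filament gene *Vim* was at 130, 122 and 154 CPM against 275, 293 and 247 CPM (log2 fold change 1.01, SE 0.12, adjusted p = 0.00173, edgeR). Tubulin genes went apart, with *Tuba1b* and *Tuba4a* lower, from 330 ± 27.7 to 216 ± 20.1 CPM and from 192 ± 5.70 to 125 ± 19.4 CPM, and *Tubb2a* higher, from 8.88 ± 0.361 to 16.8 ± 2.44 CPM (SD, n = 3). Of 39 genes of the BCL2 family and caspases, *Mlkl*, the effector of necroptosis, rose from 38.1 ± 3.69 to 69.9 ± 12.4 CPM and *Casp1*, the inflammasome protease, from 56.9 ± 4.23 to 86.3 ± 17.8 CPM, and *Aifm1*, which encodes a mitochondrial oxidoreductase, fell. Among 46 channels *Aqp9*, *Lrrc8d* and *Kcnab2* rose and *Kcnk5* fell, among 63 lysosome and autophagy genes *Sqstm1*, *Ulk2* and *Wipi1* rose, a share of 4.76% beside 4.92% of all genes, and among 35 iron and haem genes *Slc48a1* and *Ftl1* rose and *Slc39a8* and *Glrx5* fell. In antigen presentation and costimulation, 2 of 39 genes rose (*Vsir*, *H2-Ob*) and *Cd40* fell. Of 35 p53 targets *Ddit4*, *Btg2* and *Trp53inp1* rose and 0 fell, and of 28 G1 regulators *Mxd4* and *Btg2* rose. With 1 mouse left out, *Vim* and *Aqp9* kept their calls, and of the 11 cytoskeleton calls 3, 2 and 2 stayed without control mouse 1, 2 and 3 and 3 without Pdap1-deficient mouse 3. Most other calls in these lists were lost without a control mouse (adjusted p up to 0.207, edgeR).

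The 741 calls were not equally firm. Each kept its direction in all 6 fits that left out 1 mouse. The genotypes did not overlap in any of these genes, so this was nearly fixed in advance and lends no weight. Only 50 of the 421 higher and 11 of the 320 lower genes also stayed past the threshold in all 6 fits. Among the 11 lower genes were *Pdap1*, *Ccl22*, *Ifi208*, *Tmem176b*, *Car2*, *Ighg1*, *Fcer2a*, *Wdr4*, *Ighe* and *Polr2h*. Of the 741 genes, 89, 68 and 77 were still called without control mouse 1, 2 and 3, 157 without Pdap1-deficient mouse 3, and 713 and 711 without Pdap1-deficient mice 1 and 2. The myeloid marker sums of Pdap1-deficient mice 1, 2 and 3 were 12.1, 340 and 40.0 CPM, and their part in the calls was not tested. With *Xist* as a covariate, 184 of the 741 were still called. For a single gene, an exact permutation test of 3 mice against 3 cannot give a p-value under 0.1, so these calls come from the model fitted across genes.

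Whether a change differed from that in the cultures of the same mice with LPS, BAFF and TGFβ was asked with a term for genotype by stimulation in a fit of 12 libraries. It called 0 of 15794 genes in edgeR (755 at an unadjusted p under 0.05, smallest adjusted p 0.217) and 6 in DESeq2. That smallest value was shared by *Prdm1*, *Tmem26* and the Atf4 target *Chac1*. For *Prdm1* the log2 fold change was 1.82 with LPS and IL-4 and 0.28 (SE 0.21) with LPS, BAFF and TGFβ, where its mean was 8.04 CPM in control and 9.44 CPM in Pdap1-deficient cultures. For *Fcer2a* the log2 fold change was -0.92 and -0.50, for *Tagap* -0.74 and -0.17 and for *Il6* 2.36 and 2.21, and the adjusted p of the term was between 0.98 and 0.999 (edgeR). Of the genes called with LPS and IL-4, 374 of the 392 higher and 297 of the 317 lower genes that were also tested with LPS, BAFF and TGFβ had the same sign there, and 56 and 1 passed. That comparison had a wider spread and missed the deleted gene itself. *Pdap1* had a log2 fold change of -2.33 there (SE 0.36 against 0.11 with LPS and IL-4, adjusted p = 0.0929, edgeR). A gene that did not pass there was thus not shown to be unchanged.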

How the data were processed

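Per the labels and the study's methods, the authors depleted ribosomal RNA, made stranded libraries, trimmed reads with Trim Galore 0.6.1, mapped them to GRCm38 with STAR 2.6 and counted them per Ensembl gene with HTSeq 0.9.1. The labels name a stranded mRNA kit and the methods a total RNA kit. Strand setting and annotation release of the counting are not given in the sources used here. The authors deposited counts per gene without normalization for 55536 genes, and these were used. Their second table, counts divided by 1 constant per library, was not used. GENCODE M21 named all 55536 genes.

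The 6 LPS and IL-4 libraries were tested with edgeR 4.0.16 in R 4.3.3 (filterByExpr, TMM with factors between 0.981 and 1.05, quasi-likelihood F test, robust, adjusted p under 0.05). The SE is the log2 fold change over the root of F. Samples are separate mice, and no pair of libraries was a copy of another (chi-square per degree of freedom between 7.67 and 42.3). On simulated counts for 15074 genes with 200 changed, the edgeR test of genotype with LPS-IL-4 recovered 24% at a 1.5-fold, 48% at a 2-fold and 82% at a 3-fold or 4-fold change, with 11 other calls. These counts were drawn independently for each gene and mouse. They lack what genes share within a mouse, such as sex, myeloid RNA or a length trend. With an imposed length trend there were 318 other calls, and 8 with the gene length offset. The figures thus do not give the error in the real data.

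Members and gene lists were chosen with earlier results of these data known. The lists were written by hand. Named genes are *Pdap1*, the 12 higher and 18 lower protein-coding genes of smallest adjusted p whose direction held with each mouse left out and which are outside the 4 lists set aside, the 5 largest changes in each direction at a mean of at least 1 CPM, and members of lists. Alternatives were DESeq2 1.42.0, its size factors, other filters, each mouse left out, a block for replicate number, a fit of all 12 libraries, an adjusted p under 0.01, *Xist* as a covariate, immunoglobulin genes removed and, added after seeing the data, a gene length offset. Python 3.11.15, pandas 2.3.3 and matplotlib 3.10.9 made tables and figures. Values of some genes on these lists are not reported here.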

Additional observations from a re-analysis of the deposited data

How the results depend on the processing

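The count of 741 genes (421 higher, 320 lower) moved with the test and the mice. DESeq2 called 1217 (657 lower), the fit without a filter on low counts 1694 (891 higher, 803 lower), a threshold of 0.01 130 (104 and 26) and *Xist* as a covariate 187 (141 and 46). In the fit of all 12 libraries 202 genes were lower. With 1 mouse left out the counts ranged from 69 to 1759, with 58 to 936 higher and 11 to 823 lower. DESeq2 size factors, a minimum of 10 counts in every library, removal of immunoglobulin genes and the gene length offset gave between 608 and 764 genes. For the genotype by stimulation term, DESeq2 called 6 genes and the fit with the mouse as a block 0. None of the 233 genes followed through the alternatives changed direction. These are called genes whose values did not overlap between genotypes, so with a mouse left out they could hardly do so. The cause of these shifts was not tested.

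The labels give no link between control and Pdap1-deficient mice of the same number. Deviations of same-numbered mice correlated at 0.03, -0.17 and -0.16, and those of mice with unlike numbers between -0.11 and 0.2. With so few mice these values cannot decide on pairing. With the replicate block the count was 641 genes (384 higher, 257 lower).

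Depth limits the weakly expressed genes, whose controls held few counts, and counts give no exon usage or protein level.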

Other observations

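Gene families were taken by the start of their symbol after the values were seen, so their directions are a description and lend no weight to those of the lists. Of 74 genes for mitochondrial ribosomal proteins 72 had fitted values below control, with 4 calls (*Mrpl20*, *Mrpl11*, *Mrps26*, *Mrps5*) and a median log2 fold change of -0.30, and their share of calls is near that of all genes. All 22 genes of the mitochondrial import translocases (*Timm* and *Tomm*) were fitted lower, with a median of -0.35 and calls for *Tomm40* and *Timm50*, and so were the 9 tested exosome subunits (3 calls, median -0.28) and the 11 snRNP core proteins (2 calls, median -0.35). Of 37 proteasome subunits 35 were fitted lower with 0 calls and a median of -0.21. Other families lay near 0, with medians of 0.02 for 28 TBC1 domain proteins (4 calls, each higher) and 0.07 for 320 *Zfp* zinc finger genes (5 higher, 2 lower). Of 16 genes with symbols that start with *Pde* and a digit, 15 were above control, with 4 calls (*Pde4dip*, *Pde4b*, *Pde8a*, *Pde5a*). Their median was 0.62, and 0.50 with the gene length offset. They include cyclic nucleotide phosphodiesterases, but *Pde4dip* encodes a protein that binds one and is not a phosphodiesterase gene. Protein tyrosine phosphatases had 4 calls among 19 (*Ptpn22*, *Ptpn12*, *Ptpn14*, *Ptpre*), each higher, with a median of 0.30. Of 193 solute carriers 14 were higher and 7 lower, with a median of 0.04, and the lower ones included the nucleoside transporters *Slc29a1* and *Slc29a2*.

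Among 5 classes of nearly equal size by exonic length, the longest, from 6678 bases, held 150 higher and 25 lower calls, and the shortest 23 higher and 57 lower. With the gene length offset the longest class held 85 and 41.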
